A study of Mus musculus with 7 samples.

Results

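Siglec receptors are cell surface lectins that read sialic acids, the sugars that cap glycans on most mammalian cells. The 6 genes described here, Siglece, Siglecf, Cd33, Siglecg, Cd22 and Siglec1, were picked by symbol out of 26143 named genes, and all 6 passed the filter on low counts that left 12759 genes for testing. Siglece had already stood out in the comparison of Cish-/- and wild-type cells when the family was chosen. The differences between genotypes in these 6 genes are therefore given as a description, with no test, and support nothing.

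The data are bulk RNA sequencing of sorted alveolar macrophages, which patrol the airspaces of the lung, from C57BL/6 mice aged 4 months. There were 3 libraries of mice lacking Cish (KO) and 4 libraries of wild-type mice (WT). Cish is a STAT5 target of the SOCS family whose protein feeds back on cytokine receptors. The labels give the genotype as a knockout, name no other allele, treatment or Cre driver, and do not say whether each library came from its own mouse, so p-values reflect library-to-library spread, which may be technical.

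Total counts lay between 26780291 and 30989230 in KO and between 30637634 and 34483612 in WT. Cish itself had 390, 369 and 296 counts in KO libraries, against 1656, 948, 1198 and 2170 counts in WT libraries. Its log2 fold change was -1.84 (SE 0.26), and the adjusted p was 0.0519 in edgeR's quasi-likelihood test and 2.81e-11 in DESeq2. The first principal component (42.6% of the variance) placed the KO libraries at -43.9 to -18.3, the WT libraries other than WT 4 at 24.1 to 39.4, and WT 4 in the gap, at -7.27. KO 3 was the KO library nearest to WT 4, and values without both are given where they matter. On this component WT 4 and KO 3 were the libraries nearest to the other genotype. Leaving both out therefore favours a wider split of the genotypes, and no support is drawn from it. The marker genes Marco, Chil3, Fabp1 and the other 8 on the alveolar macrophage list were all present, with summed levels in CPM (counts scaled to the same library total) of 46258 to 79795 in KO and 21002 to 56850 in WT, most of it Chil3. Of these 11 markers 8 were higher in KO, with a median of 0.29 on the log2 scale. EdgeR called 0, with 5 higher and 1 lower at an unadjusted p below 0.05. DESeq2 called the mannose receptor Mrc1 higher and the ribonuclease gene Ear1 lower. Over all tested genes 49.5% were lower in KO and 18.0% had an unadjusted p below 0.05, and DESeq2 called 5.71% of those it tested. Markers of monocytes and interstitial macrophages, among them Ccr2, summed to 12.5 to 29.0 CPM in KO and 9.51 to 23.1 CPM in WT, and those of dendritic cells, mostly Bst2, to 49.7 to 64.9 CPM in KO and 47.7 to 60.8 CPM in WT.

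Siglecs are type I membrane proteins of the immunoglobulin superfamily. Most carry inhibitory tyrosine motifs (ITIMs) in the cytoplasmic tail, which Src family kinases phosphorylate and which then recruit the phosphatases SHP-1 and SHP-2. Sialic acid on the cell's own surface or on neighbouring cells occupies these receptors and raises the threshold for activation. In the mouse the fast-evolving CD33-related group includes Siglece, Siglecf, Siglecg and Cd33, while Cd22 and Siglec1 (sialoadhesin, CD169) belong to the conserved group. Siglec-F is a standard surface marker of mouse alveolar macrophages and of eosinophils.

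The CD33-related members lie together on chromosome 7 (mm10, GENCODE M21). Siglecf (43351341 to 43359531, plus strand), Siglecg (43408204 to 43418358, plus strand), Cd33 (43524216 to 43544428, minus strand) and Siglece (43651070 to 43660161, minus strand) together span 309 kb. Cd22 lies on the same chromosome at 30865402 to 30880342, 12471 kb before Siglecf, and 18.8 kb from Mag, another Siglec family gene. Siglec1 is on chromosome 2 at 131069220 to 131086765.

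The promoters of Siglece, Siglecf and Cd33 are printed because Siglece and Siglecf were the members whose KO and WT libraries did not overlap, and because Siglecf and Cd33 were the only members found to share promoter sequence. Each runs from 250 bases before to 50 bases after the start of transcription in RefSeq (mm10), 5′ to 3′ on the strand of the gene. Siglece is at chr7:43660112-43660411 on the minus strand, Siglecf at chr7:43351091-43351390 on the plus strand and Cd33 at chr7:43533122-43533421 on the minus strand. The Cd33 window lies inside the GENCODE span of the gene (43524216 to 43544428), so RefSeq and GENCODE place its start differently. The words shared with Cd33 therefore rest on its RefSeq start, and the bases before its GENCODE start were not searched. Capitals mark exact words of at least 12 bases that stand in another member's promoter.
Siglece: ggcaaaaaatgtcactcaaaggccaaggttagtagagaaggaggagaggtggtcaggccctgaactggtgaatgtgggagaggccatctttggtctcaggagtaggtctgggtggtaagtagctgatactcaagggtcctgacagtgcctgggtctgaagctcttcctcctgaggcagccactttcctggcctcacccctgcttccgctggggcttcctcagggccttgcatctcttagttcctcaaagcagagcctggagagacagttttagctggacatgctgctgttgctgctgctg
Siglecf: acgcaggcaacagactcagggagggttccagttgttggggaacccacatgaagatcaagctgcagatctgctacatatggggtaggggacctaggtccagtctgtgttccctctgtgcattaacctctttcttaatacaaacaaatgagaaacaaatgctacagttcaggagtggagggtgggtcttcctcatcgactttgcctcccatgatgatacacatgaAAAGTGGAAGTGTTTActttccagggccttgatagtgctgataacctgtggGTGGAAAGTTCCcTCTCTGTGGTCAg
Cd33: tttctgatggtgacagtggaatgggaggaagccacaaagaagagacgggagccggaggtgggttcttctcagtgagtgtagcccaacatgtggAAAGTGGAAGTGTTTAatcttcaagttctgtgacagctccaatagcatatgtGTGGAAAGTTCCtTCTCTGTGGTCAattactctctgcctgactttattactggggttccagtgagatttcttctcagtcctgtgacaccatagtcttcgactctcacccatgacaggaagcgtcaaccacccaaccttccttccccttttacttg

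Siglecf and Cd33 shared 3 such words, in the same order and on the same strand. The longest, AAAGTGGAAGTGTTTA, has 16 bases and stands in 2 of the 32851 promoters in the RefSeq table. It begins 27 bases before the RefSeq start of Siglecf and 157 bases before that of Cd33. The word GTGGAAAGTTCC also stands in 2 promoters, and TCTCTGTGGTCA in 9. There were 6 promoters for 5 members, since Siglecg had a pair that overlap each other, and no other pair of different genes shared a word of this length. Of the 4 motifs searched on both strands, the STAT motif TTCNNNGAA stands in 8.3% of all promoters and its narrower STAT5 form TTCCNGGAA, every match of which also matches the wider motif, in 1.15%. The PU.1 motif GAGGAAGT stands in 3.2% and the interferon response motif GAAANNGAA in 8.56%. None of the 4 was found in the 6 promoters, each placed by its RefSeq start. The Cd22 promoter (chr7:30878979-30879278, minus strand) also lies inside the GENCODE span of its gene.

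Siglece was lower in KO. This receptor of neutrophils, monocytes and macrophages carries an ITIM, restrains myeloid activation in mice and is regarded as the mouse counterpart of human Siglec-9. Siglece had 25.5, 28.2 and 33.1 CPM in KO libraries, against 57.5, 66.3, 69.9 and 61.2 CPM in WT libraries. The highest KO library stood well under the lowest WT library. The means were 28.9 CPM ± 3.85 in KO (SD, n = 3) and 63.7 CPM ± 5.45 in WT (SD, n = 4), 2.20-fold lower in KO, with a log2 fold change of -1.14 (SE 0.11). Its adjusted p of 0.00565 by edgeR was among the results known when the family was chosen, and edgeR called 11 of 12759 tested genes (0.0862%), 6 higher and 5 lower in KO. That number was 7 without WT 1, 284 without WT 4 and 217 without KO 3. Without WT 4 and KO 3 the log2 fold change of Siglece was -1.27. Over 15 other settings it stayed between that value and -1.06, which was reached without KO 1. In bulk RNA, fewer cells of a type and less RNA per cell cannot be told apart.

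Siglece is also made by neutrophils, whose marker Ly6g was at 0 in all 7 libraries. S100a8, a calcium-binding protein abundant in neutrophils, had 30.7, 17.4 and 8.86 CPM in KO libraries and 14.3, 9.25, 4.80 and 9.45 CPM in WT libraries, and these ranges overlapped. Of the 3 neutrophil markers that were tested, S100a8 was higher in KO, while S100a9 and Cxcr2 had log2 fold changes of -0.10 and -0.18. The 8 neutrophil markers summed to 13.3 to 35.2 CPM in KO and 7.76 to 20.2 CPM in WT, most of it S100a8. The part of these genes, and that of the alveolar macrophage marker sum, in the Siglece values was not tested.

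Siglecf, the alveolar macrophage marker and the mouse counterpart of human Siglec-8, was the most abundant member. It had 372, 455 and 433 CPM in KO libraries, against 575, 587, 553 and 521 CPM in WT libraries. Again every KO library was under every WT library, but by a smaller margin than for Siglece. Of the 11 listed alveolar macrophage markers 8 were higher and 3 lower in KO, and edgeR called 0, while 49.5% of all tested genes were lower. The part of these markers in the Siglecf values was not tested. The Siglecf means were 420 CPM ± 42.7 in KO (SD, n = 3) and 559 CPM ± 29.0 in WT (SD, n = 4), 1.33-fold lower in KO, with a log2 fold change of -0.41 (SE 0.09). Without WT 4 and KO 3 this value was -0.47, and it ranged from -0.48 without KO 2 to -0.33 without KO 1. Markers of eosinophils, the other main Siglec-F-bearing cells, were close to 0, with a sum over 5 genes of 0.231 to 0.515 CPM in KO and 0.0938 to 0.688 CPM in WT, and Prg3 was at 0 in every library. KO libraries lay below WT libraries with no overlap for 2 of the 6 members, Siglece and Siglecf, and for 1113 of the 12759 tested genes (8.72%). Because the members were chosen on this contrast, nothing is read from that share.

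**Figure D1:**
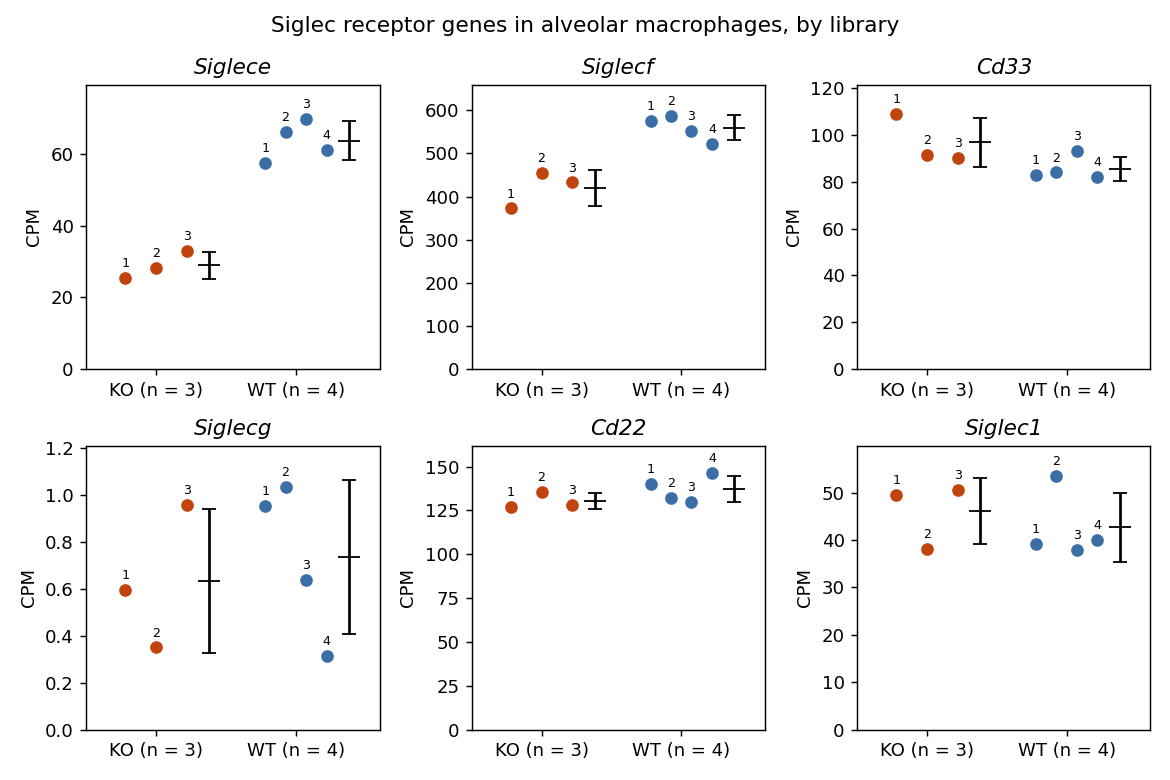
Level of each of the 6 Siglec genes in every library, in CPM on a linear axis of its own per gene, with KO left of WT; points are libraries and bars the mean ± SD (n = 3 KO, n = 4 WT). Siglece and Siglecf have every KO library below every WT library, while the libraries of Cd33, Siglecg, Cd22 and Siglec1 overlap.

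Cd33, a myeloid receptor best known from human leukaemia and microglia, did not follow Siglece although it is the nearest member to it on the chromosome. It had 109, 91.7 and 90.3 CPM in KO libraries, against 83.0, 84.0, 93.2 and 82.1 CPM in WT libraries. The ranges overlapped through WT 3, which exceeded KO 2 and KO 3. The log2 fold change was 0.18 (SE 0.09), between 0.09 without KO 1 and 0.23 without KO 3.

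Siglecg is the inhibitory receptor best known from B-1 cells and is regarded as the mouse counterpart of human Siglec-10. It was barely detected, with 18, 9 and 26 counts in KO libraries and 34, 33, 20 and 10 counts in WT libraries. These were 0.594, 0.350 and 0.956 CPM in KO, against 0.951, 1.03, 0.636 and 0.313 CPM in WT. The lowest library of all was WT 4, and the ranges overlapped almost fully. The log2 fold change of -0.21 was smaller than its SE of 0.49. It ran from -0.87 without WT 4 and KO 3 to 0.07 without KO 2, where its direction turned.

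Cd22, the inhibitory co-receptor of the B-cell receptor, was well expressed in these macrophage libraries. It had 127, 135 and 128 CPM in KO libraries, against 140, 132, 130 and 146 CPM in WT libraries. KO 2 exceeded WT 2 and WT 3, so the groups overlapped, and the log2 fold change was -0.07 (SE 0.08). Ms4a1, the B-cell surface protein CD20, had 0.561, 0.389 and 0.846 CPM in KO libraries and 1.59, 0.438, 0.318 and 0.532 CPM in WT libraries. The 11 B-cell markers together reached 5.33 to 20.9 CPM in KO and 5.35 to 10.5 CPM in WT, with the highest sum in KO 2, where Ighm, the immunoglobulin mu heavy chain, alone had 18.3 CPM. Of the 6 B-cell markers that were tested, 4 were higher and 2 lower in KO. Cd22 was above the summed B-cell markers in every library, and the part of B cells in the Cd22 values was not tested. A predicted gene on the opposite strand, Gm29439, overlaps 479 exon bases of Cd22, and the library kit does not mark strand, so reads from there cannot be told apart.

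Siglec1 has no ITIM and serves adhesion. Its long extracellular part reaches out to bind sialylated ligands on other cells, and interferon is known to induce it. It had 49.5, 38.1 and 50.6 CPM in KO libraries, against 39.2, 53.6, 37.9 and 40.0 CPM in WT libraries. KO 2 stood with the 3 lower WT libraries, and WT 2 stood above all KO libraries. The log2 fold change was 0.11 (SE 0.15), with a low of 0.01 without WT 4 and KO 3 and a high of 0.24 without WT 2.

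**Figure D2:**
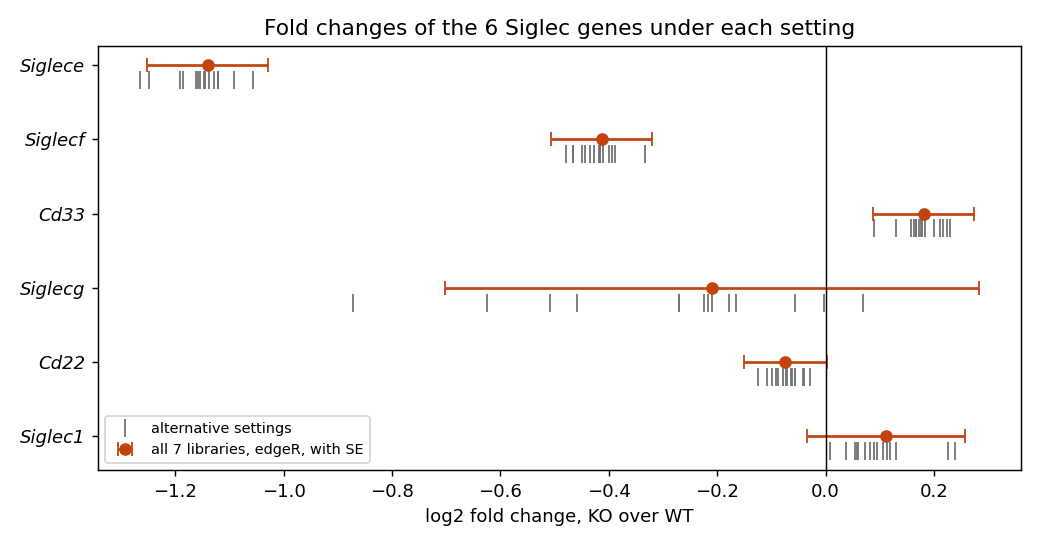
Log2 fold change of KO over WT for each Siglec gene, with the SE as a bar, from all 7 libraries and from each alternative setting as a grey tick below it. Siglece lies between -1.27 and -1.06 and Siglecf between -0.48 and -0.33 in all 15 alternatives, and Siglecg spreads most, from -0.87 to 0.07.

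The spread between libraries of the same genotype differed among the members. The coefficient of variation was 3.51% in KO and 5.45% in WT for Cd22, the steadiest member in KO, and 48.2% in KO and 44.7% in WT for Siglecg, which had few reads. For Siglece it was 13.3% in KO and 8.56% in WT, and for Siglecf 10.2% in KO and 5.19% in WT. The biological coefficient of variation that edgeR fitted was 0.101 for Cd22, 0.117 for Siglece, 0.148 for Siglec1 and 0.411 for Siglecg, against 0.187 in common over all tested genes.

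Within a library, reads of Siglece can be set against those of other members. There were 14.6, 16.1 and 13.1 reads of Siglecf for each read of Siglece in KO libraries, against 10.003, 8.86, 7.92 and 8.52 in WT libraries. Reads of Cd33 outnumbered those of Siglece 4.28, 3.25 and 2.73 to 1 in KO libraries, against 1.44, 1.27, 1.33 and 1.34 to 1 in WT libraries. Both ratios were higher in every KO library, and they need no scaling between libraries. Siglece is the divisor of both, and its lower level in KO was known when the family was chosen. Nothing is therefore read from this split. Summed over the 6 genes, Siglec reads made up 684, 749 and 735 CPM in KO and 896, 924, 884 and 851 CPM in WT, most of them Siglecf.

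To compare levels between genes, CPM were divided by the length of all annotated exons in kb. On this scale Siglecf led with 150.5 ± 15.3 CPM per kb in KO (SD, n = 3) and 200.4 ± 10.4 CPM per kb in WT (SD, n = 4). Siglece was next in WT but not in KO, with 15.6 ± 2.08 CPM per kb in KO and 34.5 ± 2.95 CPM per kb in WT, while Cd22 had 25.8 ± 0.906 in KO and 27.2 ± 1.48 in WT. In KO every library of Cd22 (25.2 to 26.9 CPM per kb) was above every library of Siglece (13.8 to 17.9), and in WT Siglece (31.1 to 37.8) was above Cd22 (25.8 to 29.0). Cd33 had 12.5 ± 1.34 CPM per kb in KO and 11.01 ± 0.659 in WT, and its KO range of 11.6 to 14.0 touched that of Siglece. Siglec1 followed with 6.45 ± 0.972 CPM per kb in KO and 5.97 ± 1.02 in WT, and Siglecg came last with 0.132 ± 0.0635 in KO and 0.153 ± 0.0682 in WT.

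This order depends on the length used, since Cd33 has 7771 exon bases but 1209 coding bases. Per kb of coding sequence, Cd33 reached 80.2 CPM in KO and 70.8 CPM in WT and stood second to Siglecf, above Cd22 (49.99 CPM in KO, 52.6 CPM in WT) and Siglece (20.6 CPM in KO, 45.5 CPM in WT). Siglecf stayed first and Siglecg last on both scales.

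**Figure D3:**
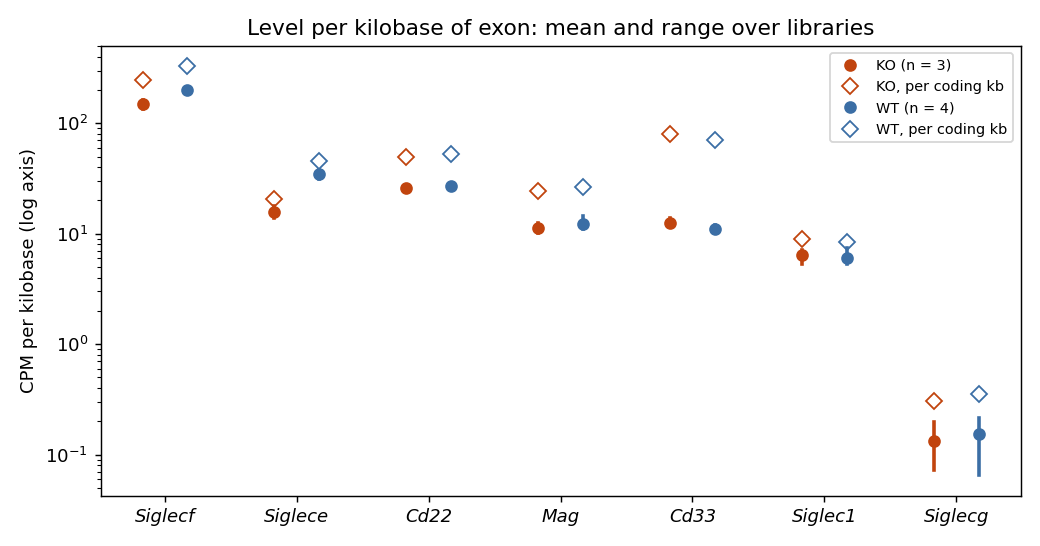
Mean level per kb of exon for the Siglec genes and Mag, on a log axis in CPM per kb, KO left of WT; filled points are means, bars the range over libraries (n = 3 KO, n = 4 WT) and open diamonds the mean per kb of coding sequence. Siglecf is highest at 150.5 in KO and 200.4 in WT, Siglece lies under Cd22 in KO and above it in WT on the exon scale, the diamonds lift Cd33 most, and Siglecg is lowest.

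Reads that map to more than one gene could mix close relatives, so all stretches of 50 bases in the annotated transcripts were compared. Siglece shared none of its 1848 such stretches with another gene, and Siglecf shared 6 of 2915, all with Siglecg and the predicted gene Gm29791. The share was 0.458% for Cd33, 1.33% for Siglec1, 4.64% for Siglecg and 7.84% for Cd22. How the deposited counts treated reads of several places is not given in the sources used here.

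The surroundings of Siglece were examined to see whether its neighbours differed too. Of 10 tested genes within 500 kb on each side, the other members left out, edgeR called 0 and DESeq2 called 0 of 12 (5.71% of all genes it tested), and 2 had an unadjusted p below 0.05, a level that 18.0% of all tested genes reached. In those 10 genes the median log2 fold change was -0.06, with 5 lower in KO, while over all tested genes the median was 0.0030. Ctu1, a subunit of an enzyme that thiolates tRNA and the nearest tested gene on one side, averaged 9.53 CPM ± 0.750 in KO (SD, n = 3) and 11.4 CPM ± 1.03 in WT (SD, n = 4), and its edgeR adjusted p was 0.323. Zfp819, a zinc finger gene and the nearest on the other side, averaged 0.658 CPM in KO and 0.580 CPM in WT, with an edgeR adjusted p of 0.93. Within 1000 kb edgeR again called 0, of 20 tested genes, with 4 at an unadjusted p below 0.05. DESeq2 called 2 of 24, and both counts were near those shares. Syt3 was called, at a mean of 0.747 CPM in KO and 2.26 CPM in WT (log2 fold change -1.60, DESeq2 adjusted p 0.0287). The other was 2410002F23Rik (log2 fold change -0.58, DESeq2 adjusted p 0.0427).

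**Figure D4:**
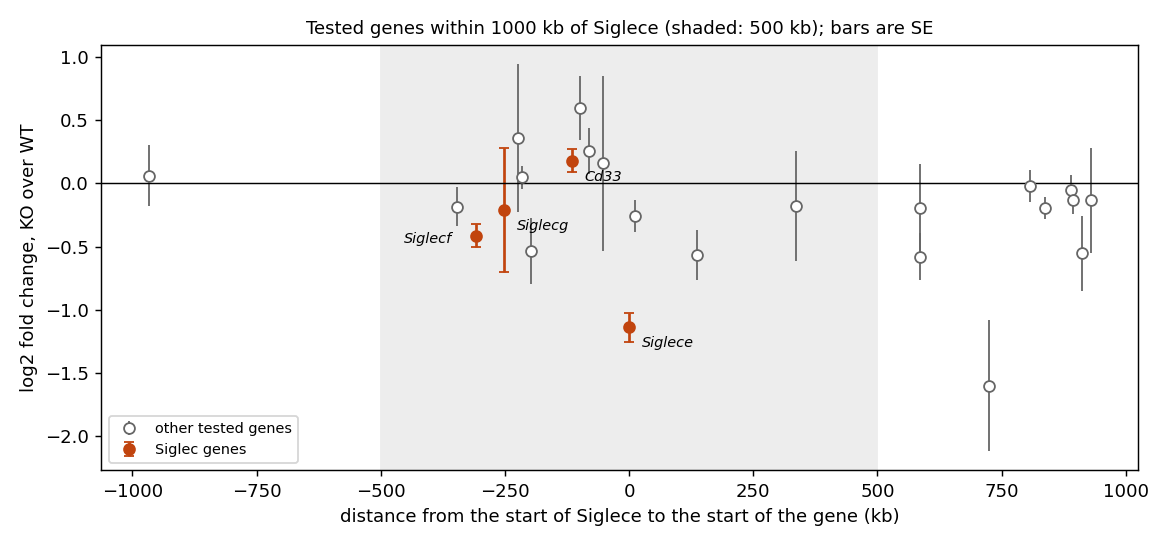
Log2 fold change of KO over WT against the distance from the start of Siglece, in kb, for tested genes within 1000 kb, the inner 500 kb shaded; filled points are Siglec genes, open points other genes and bars the SE. Siglece at -1.14 stands below all other tested genes in the shaded window, while Cd33 at 0.18 and Ctu1 at -0.26 lie near 0. Outside that window Syt3, at -1.60, lies below Siglece.

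In all, 7 lists of genes that make, carry, trim or transmit the Siglec signal were set beside the receptors. Of 79 listed genes 61 were tested, edgeR called 0 of them, 18 had an unadjusted p below 0.05 (29.5%, against 18.0% of all tested genes), and DESeq2 called 7 of 62 (11.3%, against 5.71% of all). Without WT 4 edgeR called 4, of 284 genes called over the whole table, and without KO 3 it called 3, of 217. The listed genes had a median log2 fold change of -0.08 and 62.3% were lower in KO, against 49.5% of all tested genes. For the counts of each list below, the shares over all genes are these same 18.0% and 5.71%.

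Among the 16 signalling partners, 11 were lower and 5 higher in KO, and their median log2 fold change was -0.05. DESeq2 called 3 lower and edgeR called 0, with 6 lower at an unadjusted p below 0.05. Csk, the kinase that holds Src family kinases inactive, was lower in every KO library. It had 36.4, 39.1 and 44.9 CPM in KO libraries and 56.5, 52.5, 56.0 and 51.0 CPM in WT libraries. The log2 fold change of Csk was -0.43 (SE 0.09), and the adjusted p was 0.0950 in edgeR and 0.00460 in DESeq2. In edgeR it was 0.0438 without KO 3, and leaving out any other single library gave no call. Fgr, a Src family kinase, was also called by DESeq2, with 173, 255 and 248 CPM in KO libraries and 361, 344, 342 and 293 CPM in WT libraries (DESeq2 adjusted p 0.00565). For Ptpn6, the phosphatase SHP-1 that binds ITIMs, the levels were 399, 447 and 421 CPM in KO libraries and 546, 545, 576 and 444 CPM in WT libraries, and WT 4 overlapped KO 2. Tyrobp, the adaptor DAP12 and the most abundant of the list, averaged 1491 CPM ± 97.2 in KO (SD, n = 3) and 1512 CPM ± 153 in WT (SD, n = 4).

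Blnk, an adaptor of B cells and macrophages, had WT 4 far from the other WT libraries and is named because of those values. It had 2.67, 2.76 and 2.50 CPM in KO libraries, against 0.280, 0.125, 0.255 and 3.63 CPM in WT libraries. WT 4 stood with the KO libraries and above them. The log2 fold change was 1.30 (SE 0.93) over all libraries, with an edgeR adjusted p of 0.493. Without WT 4 it was 3.56, and edgeR called Blnk with an adjusted p of 0.0109. That omission is quoted because WT 4 was seen to stand apart, so nothing is read from the call.

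In the supply of sialic acid no gene passed either test. Of 10 genes of its synthesis, transport and modification, 6 were lower and 4 higher in KO, for a median of -0.14 on the log2 scale; edgeR and DESeq2 called 0, and 1 had an unadjusted p below 0.05. Siae, the esterase that removes acetyl groups from sialic acid, averaged 24.2 CPM ± 0.547 in KO (SD, n = 3) and 29.6 CPM ± 1.30 in WT (SD, n = 4), without overlap, with an adjusted p of 0.124 by edgeR. Slc35a1, which carries activated sialic acid into the Golgi, averaged 30.7 CPM in KO and 35.9 CPM in WT, and Renbp, an epimerase of N-acetylglucosamine and the most abundant of the list, 245 CPM in KO and 230 CPM in WT.

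Of the 20 sialyltransferases, which attach sialic acid to glycans, 10 were tested and 2 were at 0 in every library. Of those tested 6 were lower and 4 higher in KO, for a median of -0.13 on the log2 scale; edgeR called 0, 5 had an unadjusted p below 0.05 (1 higher, 4 lower), and DESeq2 called 1. That gene, St3gal2, had 4.36, 5.32 and 4.67 CPM in KO libraries and 6.77, 6.47, 6.97 and 7.10 CPM in WT libraries, and the adjusted p was 0.132 in edgeR and 0.0401 in DESeq2. St3gal4, the most abundant member, averaged 47.2 CPM ± 5.33 in KO (SD, n = 3) and 57.2 CPM ± 3.09 in WT (SD, n = 4). St6galnac6 averaged 14.9 CPM ± 2.26 in KO and 20.1 CPM ± 2.34 in WT.

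For the removal of sialic acid, 4 of 6 genes were tested, 3 higher and 1 lower in KO with a median of 0.02. Neither tool called any, and 0 had an unadjusted p below 0.05. Ctsa, the protective protein of lysosomal sialidase, averaged 1417 CPM ± 87.2 in KO (SD, n = 3) and 1319 CPM ± 144 in WT (SD, n = 4), and Slc17a5, the lysosomal exporter of sialic acid, 42.7 CPM in KO and 41.9 CPM in WT.

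Among 12 genes for carriers and makers of Siglec ligands, 8 were tested, 3 higher and 5 lower in KO, for a median of -0.11 on the log2 scale; neither tool called any, and 2 had an unadjusted p below 0.05. These were Muc1, a mucin, with 1.20 CPM ± 0.160 in KO (SD, n = 3) and 0.685 CPM ± 0.148 in WT (SD, n = 4), and Selplg, the selectin ligand PSGL-1, with 205 CPM ± 17.7 in KO and 239 CPM ± 15.4 in WT. Cd44, the hyaluronan receptor, was the most abundant, with 907 CPM in KO and 1058 CPM in WT.

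The remaining mouse Siglecs on the lists were Mag, Siglech and Siglec15. Mag, the myelin-associated glycoprotein known from myelin-forming cells, had 45.8, 51.1 and 41.2 CPM in KO libraries, against 49.3, 44.7, 58.5 and 48.3 CPM in WT libraries, and the groups overlapped (edgeR adjusted p 0.593). There were 2.78, 2.65 and 3.11 reads of its neighbour Cd22 for each read of Mag in KO libraries, against 2.84, 2.96, 2.22 and 3.03 in WT libraries. Siglech, known from plasmacytoid dendritic cells, had at most 5 counts in any library and Siglec15 at most 1, and neither was tested.

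Of 12 ITIM receptors outside the family, all tested, 8 were lower and 4 higher in KO, for a median of -0.15 on the log2 scale. EdgeR called 0, 4 had an unadjusted p below 0.05 (3 higher, 1 lower), and DESeq2 called 2 higher and 1 lower. Lilrb4a, an inhibitory leukocyte immunoglobulin-like receptor, had 1267, 1226 and 1193 CPM in KO libraries, against 835, 830, 913 and 825 CPM in WT libraries. Every KO library stood above every WT library, the opposite of Siglece, with a log2 fold change of 0.53 (SE 0.08). The adjusted p of Lilrb4a was 0.0519 in edgeR and 1.39e-08 in DESeq2. In edgeR it was 0.0362 without WT 4 and 0.0329 without KO 3, and leaving out any other single library gave no call. Pilra, an inhibitory receptor that itself binds sialylated glycans, had 234, 348 and 330 CPM in KO libraries and 444, 541, 541 and 455 CPM in WT libraries. Its log2 fold change was -0.70 (SE 0.15), and the adjusted p was 0.0950 in edgeR and 0.000495 in DESeq2. Sirpa, the receptor of CD47, averaged 1212 CPM ± 181 in KO (SD, n = 3) and 1340 CPM ± 167 in WT (SD, n = 4). Pecam1, an adhesion receptor of endothelium and leukocytes, was the other DESeq2 call that was higher, at 4.29, 2.45 and 1.62 CPM in KO libraries and 1.40, 1.47, 0.445 and 0.814 CPM in WT libraries (DESeq2 adjusted p 0.0392).

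**Figure D5:**
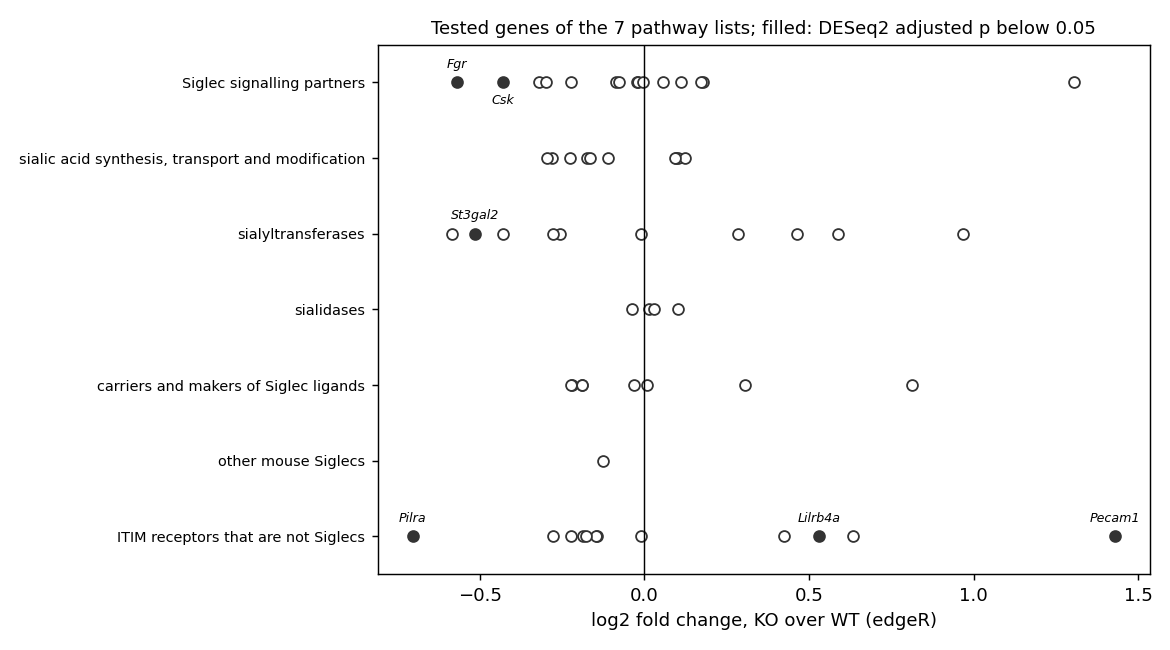
Log2 fold change of KO over WT from edgeR for the tested genes of the 7 lists, 1 point per gene and 1 row per list; filled points had a DESeq2 adjusted p below 0.05 and open points did not, edgeR called 0, and 1 tested gene is not shown. Pilra at -0.70 lies low, Lilrb4a at 0.53 lies above 0, Pecam1 at 1.43 and Blnk at 1.30 lie highest, and most others scatter about 0.

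As a description across the 7 libraries, the genes whose log2 CPM followed each member most closely were sought among 8121 genes of at least 10 CPM. Siglece ran most closely with Evl, a regulator of actin filaments (r = 0.990), Cdv3 (r = 0.988) and the GTPase Rac1 (r = 0.983). Evl had 176, 207 and 227 CPM in KO libraries and 303, 324, 358 and 320 CPM in WT libraries, low and high in the same libraries as Siglece. Siglecf ran with Pygl, the liver form of glycogen phosphorylase (r = 0.991), Ntpcr (r = 0.991) and Pitpna, a lipid transfer protein (r = 0.989). Like Siglece and Siglecf, these 6 genes had every KO library below every WT library, as did 1113 of 12759 tested genes (8.72%). They were picked by their r with members that split this way, so nothing is read from the shared split.

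The other members, without such a split, ran with other genes. Cd33 followed Nus1 (r = 0.959), Lonp1 (r = 0.950) and Sp110 (r = 0.943), and Siglecg followed Trmt6 (r = 0.968), Nudcd3 (r = 0.958) and Slc45a4 (r = 0.953). Cd22 ran with Capzb, which caps actin filaments (r = 0.955), Pmf1 (r = 0.952) and Phc2 (r = 0.950). Siglec1 ran with Atp10a (r = 0.985), Trappc8 (r = 0.982) and Susd6 (r = 0.980). Trappc8 had 49.0, 35.9 and 52.3 CPM in KO libraries and 37.4, 53.6, 38.1 and 41.1 CPM in WT libraries, with the same low KO 2 and high WT 2 as Siglec1. These r are the highest among all 8121 genes compared over the same 7 libraries, and they carry no p.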

How the data were processed

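Cells were sorted into TRIzol LS, their RNA was purified by Zymo Directzol columns, and Nextera XT libraries followed, per the labels' protocols. The authors deposited raw read counts per gene from rsubread, per the file headers and labels; mm10 and DESeq2 are named in the submitters' processing notes. For the counting step, neither the annotation nor the treatment of multiply mapped reads is stated there. In the table, 1036 rows without a symbol, 0.376% to 0.424% of each library's counts, were left out.

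The fit used edgeR 4.0.16 under R 4.3.3 (filterByExpr, TMM factors, quasi-likelihood F test on genotype, 5 residual degrees of freedom), with Benjamini-Hochberg adjustment over all tested genes and calls at an adjusted p below 0.05. CPM use TMM-scaled library sizes, and log2 CPM for correlations a prior count of 2. Fits were tested on simulated data. Alternatives used DESeq2 1.42.0, RLE factors, library sizes only, no filter, at least 5 CPM in 3 libraries, voom of limma 3.58.1, the replicate number as a block, and omitted libraries. Per-kb levels used GENCODE M21 exon lengths; coding lengths were added after the data were seen.

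The members, gene lists and tests were chosen with earlier results of these data known. Named genes were Cish, the members, up to 2 list genes of smallest p and the most abundant one per list, the nearest tested gene on each side of Siglece, the most abundant gene per marker list, and the 3 most correlated genes per member. Fgr, Ptpn6, Pecam1, Blnk, Ms4a1, Ly6g, Prg3, Marco, Fabp1, Mrc1, Ear1, Siglech, Siglec15 and Gm29439 were named outside this rule, after their values were seen. So were S100a9, Cxcr2, Syt3 and 2410002F23Rik. Some items are not reported here. No molecular identifiers are recorded, so counting precision covers reads and not molecules.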

Additional observations from a re-analysis of the deposited data

Results flagged for a closer look

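Of 33 genes examined in the WT group of 4 libraries, 3 had a single library far from the others, where chance alone flags about 1 in 20 groups. Siglec1 reached 53.6 CPM in WT 2, while the other WT libraries lay between 37.9 and 40.0 CPM. Lilrb4a reached 913 CPM in WT 3, with the other WT libraries between 825 and 835 CPM. Sirpa reached 1590 CPM in WT 2, with the other WT libraries between 1253 and 1263 CPM.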

How the results depend on the processing

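The directions of Siglece, Siglecf, Cd33, Cd22 and Siglec1 held in all 15 alternatives, and that of Siglecg in 13 of 14. The number of genes called over the whole table was 11, and it was 753 with DESeq2, 397 with no filter, 21 with the stricter filter, 430 with the replicate block and 590 without both WT 4 and KO 3. Leaving out 1 library gave 7 (without WT 1) to 284 (without WT 4), and 217 without KO 3. Of the listed genes around the receptors, 0 were called with all libraries, 7 with DESeq2, 5 with no filter, 1 with the stricter filter, 1 with voom, 4 with the replicate block, 4 without both libraries, and 0 to 4 without 1 library (4 without WT 4, 3 without KO 3). The cause was not tested. Near Siglece 0 genes were called within 500 kb by edgeR, DESeq2 or voom in each setting run. The replicate numbers did not pair the libraries: deviations of same-numbered KO and WT libraries correlated at -0.0083, 0.142 and -0.0173, and KO 2 correlated best with WT 3. Siglecg had 9 to 34 counts per library, and the part of depth in its spread was not tested.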
